A study of Mus musculus with 34 samples.

Results

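Lipid droplets are coated by a set of proteins that decide how large a droplet grows and how fast its fat is used, and the levels of 10 genes of this coat are described here across 34 mouse livers. The genes are the CIDE genes Cidea, Cideb and Cidec, the perilipins Plin2, Plin3, Plin4 and Plin5, the droplet enzymes Hsd17b13 and Hsd17b11, and Fitm2. They were taken by symbol from a deposited table of 35976 gene symbols. Each of the 10 had 1 row, and all 10 were among the 19295 genes tested, those that reached an FPKM of 1 in 5 or more libraries. FPKM counts sequenced fragments relative to transcript length in kilobases and to the size of the library.

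A lipid droplet is a core of triglyceride and cholesterol ester inside a single phospholipid layer, and hepatocytes of a fatty liver are full of them. Perilipins sit on that layer and limit the access of lipases, CIDE proteins let small droplets pass their lipid to larger ones, and the FIT protein Fitm2 acts in the endoplasmic reticulum, where droplets bud. Cidec (also called Fsp27) and Cidea are known for their low level in lean liver and their rise in fatty liver, whereas Cideb is a normal hepatocyte gene that also takes part in the lipidation of very-low-density lipoprotein.

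All mice were C57BL/6 and homozygous for both TetO-Cas9, a Cas9 gene under a tetracycline-responsive promoter, and Rosa-rtTA, the transactivator that switches it on. A guide RNA was delivered by AAV, an adeno-associated viral vector, and all mice, controls included, ate a Western diet for 3 months. The guides targeted Bcl6 (5 livers), a transcriptional repressor, Irs1 (5 livers), an adaptor of the insulin receptor, Smyd2 (6 livers), a lysine methyltransferase, Srebf1 (5 livers), the SREBP-1 lipogenic factor, or Tbx3 (7 livers), a T-box factor. The 6 control livers had guides to reporter genes foreign to the mouse, GFP in 4 (sgGFP) and LacZ in 2 (sgLacZ), and were pooled. Age and sex are not given in the labels, nor is the share of cells that was edited. The libraries were made from total RNA of whole liver, so fewer cells of a type and less RNA per cell cannot be told apart.

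The libraries held an implied 2110000 to 3130000 counted reads, and no pair of libraries was identical. The RNA of the targeted gene was lower than in every control in 4 of 5 Srebf1 KO livers, at 499 to 632 FPKM against 1095 to 2177. The library labelled Srebf1 KO replicate 1 held 1908 FPKM of Srebf1, inside the control range and unlike the other 4. Results on this group are given with and without it. For Bcl6, Irs1, Smyd2 and Tbx3 the targeted RNA overlapped the range of the controls. Irs1 KO replicates 1 to 5 held 35.8, 31.0, 28.9, 27.9 and 25.4 FPKM of Irs1, and all but the last exceeded the highest control, 27.6. Tbx3 KO replicates 1 and 2 held 248 and 178 FPKM of Tbx3, above the highest control at 147, and the others lay inside the control range. Smyd2 KO replicates 3 and 6 held 80.1 and 61.7 FPKM of Smyd2, below the lowest control at 81.6. A total over the gene does not show whether it was cut. Hepatocyte markers were high in every library, summing to 85297 FPKM or more over 14 genes, which matches the labelled tissue.

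In the control livers Plin2 was the most abundant of the 10 transcripts per kilobase, at 2094 ± 347 FPKM (SD, n = 6), followed by Hsd17b13 at 922 ± 56.7 FPKM. Neither range overlapped that of the gene next in order. Cidec (554 ± 134 FPKM), Plin4 (457 ± 107), Plin5 (373 ± 54.5), Hsd17b11 (322 ± 65.4) and Cideb (318 ± 37.0) followed, and each overlapped the next in this order. Fitm2 (75.2 ± 18.5 FPKM) and Plin3 (46.5 ± 10.3) were lower, with overlapping ranges, and the 6 control livers held 4.43 to 67.8 FPKM of Cidea. By the number of their digits, the values of Cidec, Plin2, Plin4, Plin5 and Hsd17b13 appear to be sums over several transcripts, each with its own length, whereas those of the other 5 genes appear to be single values. Comparisons of level between the genes carry that uncertainty.

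Each knockout was compared with the control to ask which of the 10 genes depend on the targeted gene in a liver fed this diet. The test was limma on log2(FPKM + 1), a scale on which low genes change less than in FPKM, with all 34 livers in 1 fit and two-sided p-values adjusted by the Benjamini-Hochberg method over the 19295 genes. The 5 comparisons share the same 6 control livers, so they are set side by side and not against each other.

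In Bcl6 KO livers 7 of the 10 genes were lower and 0 higher, where 3.19% of all genes tested were lower and 2.95% higher. Cidec and Cidea fell most, and Hsd17b11, Fitm2, Plin4, Plin2 and Cideb fell by smaller amounts. The median log2 change of the 10 was -0.67, beside -0.07 over all genes tested. Calls for Cidec, Cidea and Hsd17b11 held in each of the 20 alternative fits and leave-outs, whereas the count of 7 became 3 without Bcl6 KO replicate 1 and 4 without Bcl6 KO replicate 2, Bcl6 KO replicate 4 or sgLacZ replicate 2. It was also 3 with each library scaled to its median gene, and 4 with quantile normalization or with these 2 groups fitted alone.

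In Irs1 KO livers 4 of the 10 genes were lower and 0 higher, against 7.61% of all genes lower and 3.24% higher. Cidec fell most, followed by Plin4, Fitm2 and Plin2, and each kept its call in each of 20 alternatives. These 4 were lower in every Irs1 KO liver than in every control liver, as was Hsd17b13, which did not pass. The share of all genes that separated in this way was not computed. The median log2 change of the 10 was -0.69, beside -0.12 over all genes tested. The share of higher genes among all calls was 29.8% here and 68.6% with each library scaled to its median gene, a scaling that moved the median of all genes by 0.20 on the log2 scale, but these 4 genes kept their calls.

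In Tbx3 KO livers 2 genes were lower, Plin4 and Cidec, against 1.37% of all genes, and 1 was higher, Hsd17b13, against 1.17%. All 3 kept their call in each of 22 alternatives. The median log2 change of the 10 was -0.20, beside -0.06 over all genes tested. Median scaling moved the median of all genes by 0.11 in this comparison, and the share of higher calls from 45.9% to 70%. In the Bcl6 KO comparison it moved that share from 48.1% to 66.5%.

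No member passed the threshold in Smyd2 KO livers, where 0% of all genes did, or in Srebf1 KO livers, where 0.181% of all genes were lower and 0.197% higher. With limma, 0 of the 10 genes had an unadjusted p under 0.05 in Smyd2 KO and 2, Plin3 and Plin5, in Srebf1 KO. The count was again 0 with the library labelled Srebf1 KO replicate 1 left out. Over the 10 genes the median log2 change was -0.16 in Smyd2 KO and -0.06 in Srebf1 KO, beside 0.00 and -0.05 over all genes tested. The 2 kinds of control were also compared, and 0 of the 10 genes differed between sgGFP and sgLacZ, where 0.0104% of all genes did and the smallest unadjusted p of a member was 0.192, for Cidea.

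**Figure D1:**
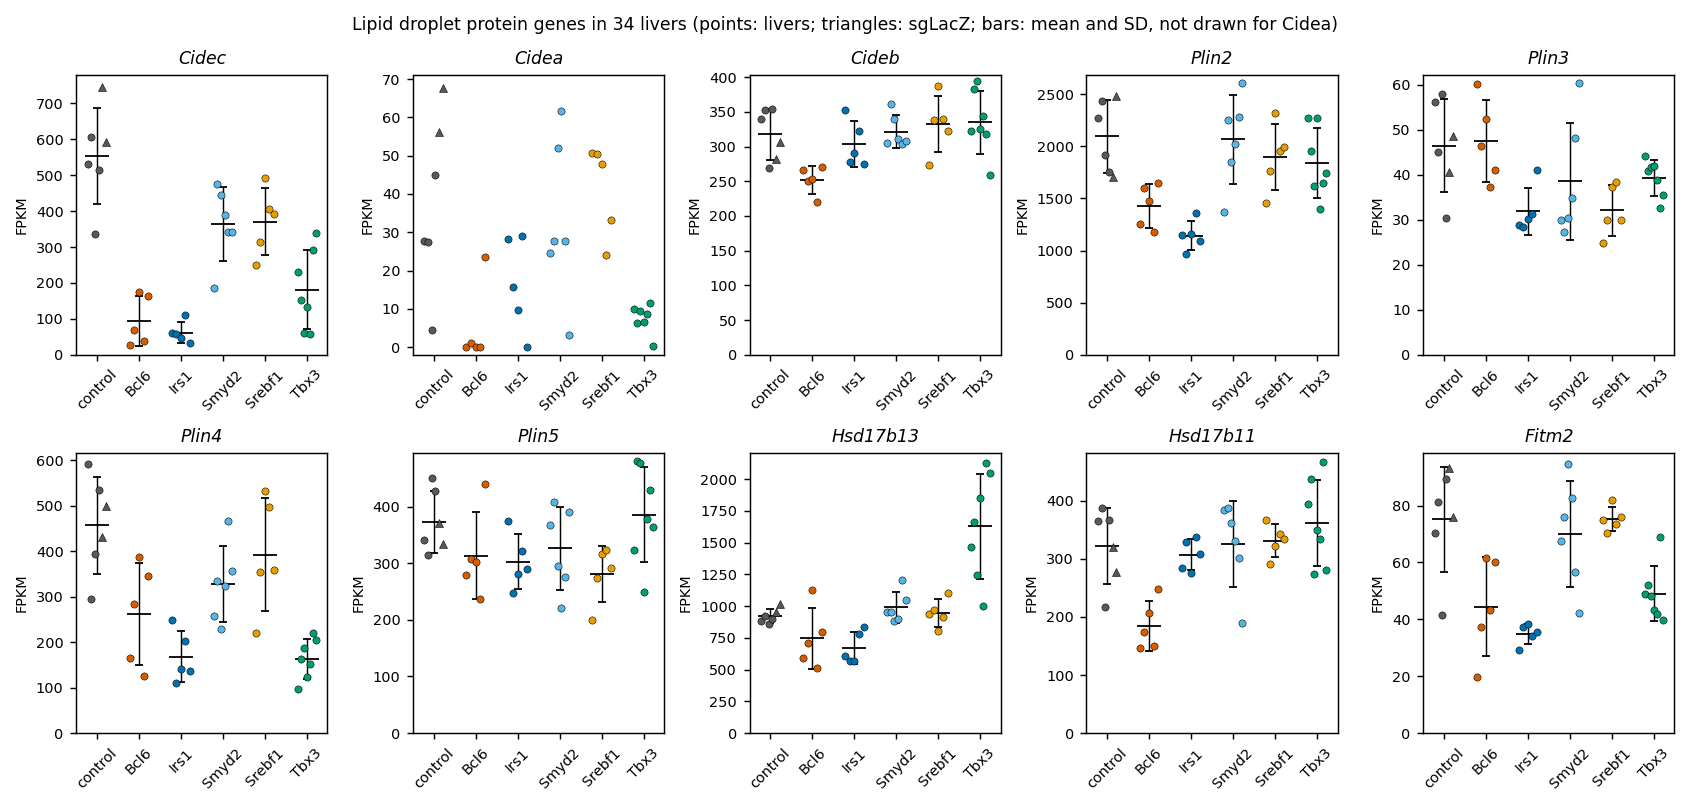
FPKM (linear vertical axes) of the 10 genes in each of 34 livers, by group, with points for livers, triangles for sgLacZ controls and bars for the mean and SD except for Cidea. Every Bcl6 KO and Irs1 KO liver lies below all 6 controls for Cidec and Plin2, and the Tbx3 KO livers reach 2125 FPKM of Hsd17b13 against 1016 at most in the controls.

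**Figure D2:**
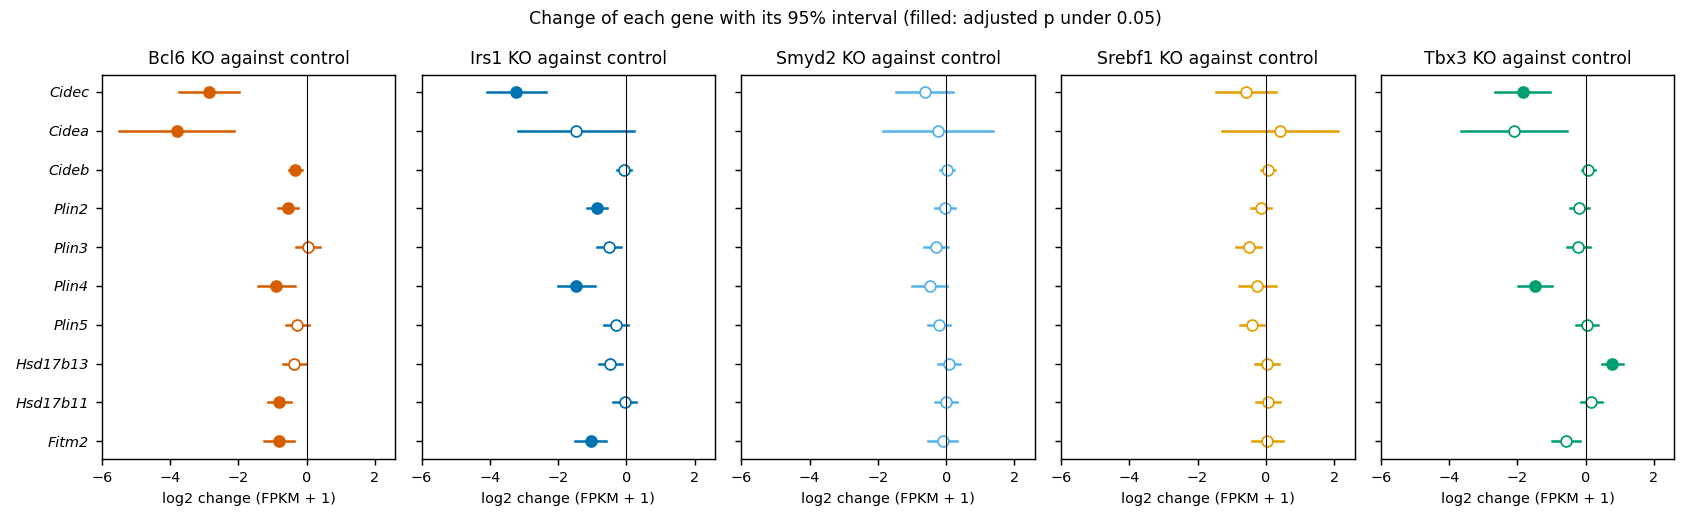
Log2 change of each gene against the control on the log2(FPKM + 1) scale, with its 95% interval, in each of the 5 knockouts; filled points passed an adjusted p of 0.05. Filled points lie left of 0 except that of Hsd17b13 in Tbx3 KO, at 0.78, and the Smyd2 KO and Srebf1 KO panels hold none.

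Cidec, the CIDE protein that joins droplets into large ones, showed the widest range of the genes above 0 in every liver, 27.6-fold between the lowest and the highest of the 34. Control livers held a lowest value of 338, a median of 561 and a highest of 745 FPKM. In the Bcl6 KO livers Cidec was at 27.0, 68.9, 175, 38.7 and 164 FPKM. Irs1 KO livers stood at 59.8, 56.8, 46.8, 112 and 33.4 FPKM. In both knockouts the highest liver was below the lowest control. Tbx3 KO livers ran from 57.5 to 338 FPKM with a median of 154, so that the highest of them just reached the lowest control.

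The mean of Cidec was 0.171 of the control mean in Bcl6 KO, a log2 change of -2.86 (SE 0.43) with a limma adjusted p of 2.06e-05. It was 0.111 of the control mean in Irs1 KO (log2 -3.22, SE 0.43, limma adjusted p = 1.77e-05). In Tbx3 KO it was 0.327 of the control mean (log2 -1.84, SE 0.39, limma adjusted p = 0.00722), and all 3 decreases passed the test. Smyd2 KO livers ran from 185 to 476 FPKM (median 367) and Srebf1 KO livers stood at 249.98, 315, 493, 406 and 391 FPKM. Their log2 changes were -0.63 (95% interval -1.46 to 0.21) and -0.58 (-1.45 to 0.30), which did not pass the test, and the intervals leave room for a decrease of more than 1 on this scale. The latter change was -0.44 without the library labelled Srebf1 KO replicate 1.

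Cidec lies on mouse chromosome 6 (GRCm38 113424634 to 113435760, minus strand) and RefSeq lists 2 transcript starts for it, which the gene total does not separate. The promoter windows of Cidec and Plin4, the genes that fell in 3 knockouts, of Plin2, the most abundant member, and of Hsd17b13, the gene that rose in Tbx3 KO, are shown. Each runs 5′ to 3′ on the gene's own strand from 250 bases before to 50 after the start, from RefSeq on GRCm38.p6, with capitals on the letters of any motif searched. The Cidec windows are chr6:113435711-113436010 and chr6:113434715-113435014, Plin4 is chr17:56109733-56110032, Plin2 is chr4:86670010-86670309 and Hsd17b13 is chr5:103977339-103977638, all on the minus strand.
Cidec, upstream start: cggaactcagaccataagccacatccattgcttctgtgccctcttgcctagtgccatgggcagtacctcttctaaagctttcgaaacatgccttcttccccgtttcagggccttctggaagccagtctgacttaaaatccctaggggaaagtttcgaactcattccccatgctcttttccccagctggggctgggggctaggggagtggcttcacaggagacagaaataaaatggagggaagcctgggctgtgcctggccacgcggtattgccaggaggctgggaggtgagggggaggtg
Cidec, downstream start: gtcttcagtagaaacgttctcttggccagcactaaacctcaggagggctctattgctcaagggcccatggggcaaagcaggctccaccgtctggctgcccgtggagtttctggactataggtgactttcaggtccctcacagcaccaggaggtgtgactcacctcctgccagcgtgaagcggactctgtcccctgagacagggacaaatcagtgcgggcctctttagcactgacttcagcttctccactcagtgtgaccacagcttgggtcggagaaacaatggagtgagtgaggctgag
Plin4: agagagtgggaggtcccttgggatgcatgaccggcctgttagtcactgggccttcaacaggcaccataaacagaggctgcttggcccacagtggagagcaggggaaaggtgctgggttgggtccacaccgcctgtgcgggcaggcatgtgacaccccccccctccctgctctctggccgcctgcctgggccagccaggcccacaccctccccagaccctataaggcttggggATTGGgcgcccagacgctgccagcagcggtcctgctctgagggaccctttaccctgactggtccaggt
Plin2: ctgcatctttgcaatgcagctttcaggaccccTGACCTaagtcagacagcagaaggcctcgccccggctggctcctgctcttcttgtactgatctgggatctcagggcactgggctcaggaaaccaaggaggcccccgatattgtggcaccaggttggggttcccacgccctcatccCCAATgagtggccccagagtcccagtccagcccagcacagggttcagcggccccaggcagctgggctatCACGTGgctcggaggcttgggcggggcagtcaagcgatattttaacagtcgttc
Hsd17b13: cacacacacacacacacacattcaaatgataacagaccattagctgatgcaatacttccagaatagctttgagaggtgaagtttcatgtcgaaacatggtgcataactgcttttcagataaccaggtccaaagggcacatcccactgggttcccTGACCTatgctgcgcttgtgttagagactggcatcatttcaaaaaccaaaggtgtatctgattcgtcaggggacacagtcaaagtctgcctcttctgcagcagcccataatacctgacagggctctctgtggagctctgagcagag

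Of the 10 genes 9 were matched to these windows, and Cidea was left out. The motifs were searched on both strands: the E-box CACGTG (in 7.2% of 32851 mouse promoter windows of this length), the sterol element TCACNCCAC (1.2%), the nuclear receptor half-site AGGTCA (16.3%), its direct repeat DR1 (13 of 32851 windows), the STAT motif TTCNNNGAA (8.3%), the forkhead motif TGTTTAC (3.6%), CCAAT (37.4%) and TATAAA (13.6%). The half-site is contained in DR1, and no other pair overlaps by design. Neither Cidec window held any of them. The Plin4 window held CCAAT at -18 on the opposite strand. The Plin2 window held the E-box at -4, CCAAT at -73 and a half-site, read as TGACCT on the opposite strand, at -218, and the Hsd17b13 window held such a half-site at -96. A match is a run of letters and not a binding site, and its absence says only that these letters are not in the window.

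Cidea, a CIDE protein best known from brown fat, was the scarcest and most variable of the 10 genes. Control livers ran from 4.43 to 67.8 FPKM with a median of 36.3. Bcl6 KO livers were listed at 0, 0.988, 0, 0 and 23.4 FPKM, so that 4 of the 5 lay below every control and the last lay inside the control range. For its annotated length of 1115 bases 1 read is worth about 0.287 to 0.425 FPKM at the implied depths, so a value of 0 is below detection. Tbx3 KO replicate 7, at 0.275 FPKM, held about 1 read and lies just under its own value of 0.287, so this scale is approximate. On the log2 scale Cidea fell by 3.81 (SE 0.83, limma adjusted p = 0.00289), and 5 of 5 livers lay below the control mean. The fitted change depends on the pseudocount and ranged from -5.92 to -3.29 over 20 alternatives, with the call kept in each.

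In the other knockouts Cidea did not pass the test. Irs1 KO livers held 28.1, 15.6, 9.74, 28.9 and 0 FPKM (log2 -1.48, 95% interval -3.17 to 0.21). The 7 Tbx3 KO livers were low, from 0.275 to 11.6 FPKM with a median of 8.53, a log2 change of -2.09 (interval -3.64 to -0.54) that missed the threshold after adjustment (limma adjusted p = 0.138, 0.0699 to 0.332 over alternatives). A control liver at 4.43 FPKM overlapped them. Smyd2 KO livers ran from 3.21 to 61.8 FPKM (median 27.7), and Srebf1 KO livers held 50.8, 50.4, 47.8, 24.0 and 33.1 FPKM, both inside the control range or at its edge. In these 2 knockouts the intervals, -1.85 to 1.37 and -1.27 to 2.11, are wide enough to hold a change of more than 1 on the log2 scale.

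Cideb, the CIDE gene of normal hepatocytes, varied least of the 10, 1.80-fold over the 34 livers. Bcl6 KO livers held 266, 250.1, 254, 219.8 and 271 FPKM, where the controls ran from 269 to 354 FPKM with a median of 324. Only 1 of the 5 reached the control range. The log2 change of -0.33 (SE 0.10, limma adjusted p = 0.0436) kept its call in 6 of 20 alternatives. The call was lost without Bcl6 KO replicate 1, 2, 3 or 4, without sgGFP replicate 1, 2 or 4 and without sgLacZ replicate 2, where the change lay between -0.35 and -0.28. In the other 4 knockouts the log2 changes of Cideb lay between -0.06 and 0.07 and none passed. In Irs1 KO its change was 0.18 with median scaling, the opposite sign, with no call.

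Cideb cannot be read apart from its neighbour. Nop9, a gene for a ribosome biogenesis protein on the opposite strand (chromosome 14, GRCm38 55745693 to 55755500), shares 1136 of the 1488 exonic bases annotated for Cideb (55754050 to 55758458), or 76.3%. The strand setting of the counting is not given in the sources used here, so reads of the 2 genes may have been counted for both. Over the 34 livers Nop9 was the gene most like Cideb in level (Pearson r 0.93, Spearman rho 0.92 on log2 values, and r 0.90 for deviations from the group means). Nop9 was at 60.0 ± 2.97 FPKM in Bcl6 KO (n = 5) and 72.9 ± 10.5 in the controls (n = 6). The ratio of Cideb to Nop9 stayed between 3.90 and 4.87 in all 34 livers. The part of this overlap in the change of Cideb was not tested.

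**Figure D3:**
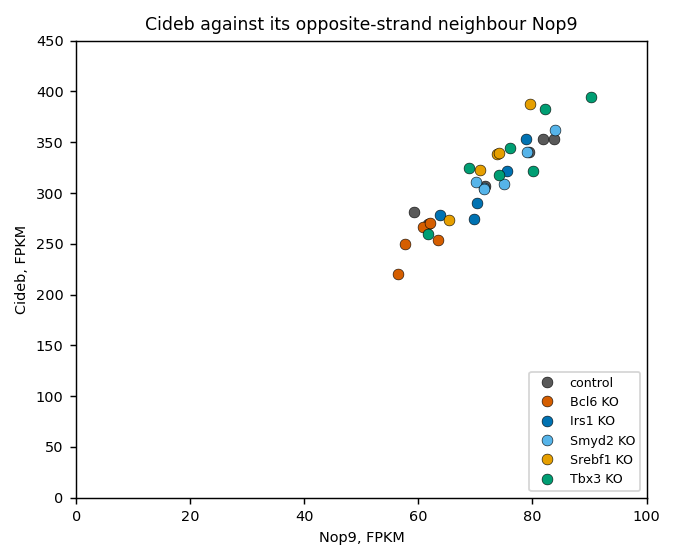
FPKM of Cideb (vertical) against FPKM of Nop9 (horizontal) in each of 34 livers, coloured by group, on linear axes from 0. The points lie along 1 line at 3.90 to 4.87 times the Nop9 level, with the Bcl6 KO livers at its lower end.

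Plin2, the perilipin present on nearly every hepatocyte droplet, fell in both Bcl6 KO and Irs1 KO with no overlap with the controls. The 6 control livers ran from 1704 to 2482 FPKM with a median of 2097. Bcl6 KO livers held 1252, 1602, 1472, 1175 and 1648 FPKM and Irs1 KO livers 1148, 963, 1155, 1355 and 1090.03 FPKM. The mean was 0.683 of the control mean in Bcl6 KO (log2 -0.55, SE 0.15, limma adjusted p = 0.0209) and 0.545 of it in Irs1 KO (log2 -0.87, SE 0.15, limma adjusted p = 0.000293). In Bcl6 KO the call was kept in 15 of 20 alternatives. It was lost without Bcl6 KO replicate 1 or 4, sgGFP replicate 2 or sgLacZ replicate 2, and with median scaling. The fall of Plin2 was thus smaller than that of Cidec in the same livers: the ratio of Cidec to Plin2 had a median of 0.243 in the controls, 0.0430 in Bcl6 KO and 0.0521 in Irs1 KO, and the ranges in both knockouts lay below that of the controls. The median ratio was also lower in Tbx3 KO, at 0.0787, with a range of 0.0381 to 0.194 that overlapped the controls.

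In the remaining groups Plin2 stayed inside or close to the control range. Tbx3 KO livers ran from 1399 to 2268 FPKM (median 1740.2, log2 -0.19, 95% interval -0.47 to 0.09) and Smyd2 KO livers from 1370.5 to 2606 FPKM (median 2140, log2 -0.03, interval -0.32 to 0.26). Srebf1 KO livers held 1457, 1765, 2322, 1951 and 1996 FPKM (log2 -0.14, interval -0.44 to 0.16), and -0.05 without the library labelled Srebf1 KO replicate 1. Plin2 lies on chromosome 4 (GRCm38 86648386 to 86670060, minus strand).

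Plin4, a perilipin of nascent triglyceride droplets that is abundant in fat and muscle, fell in 3 knockouts. The controls ran from 294 to 591 FPKM with a median of 464. Tbx3 KO livers ran from 96.9 to 219 FPKM with a median of 163, all below the lowest control, at 0.358 of the control mean (log2 -1.49, SE 0.25, limma adjusted p = 0.000451). Irs1 KO livers held 249, 110.4, 142, 201 and 136 FPKM, again all below the lowest control, at 0.367 of its mean (log2 -1.47, SE 0.27, limma adjusted p = 0.000653). Bcl6 KO livers were split, with 166, 283, 388, 126 and 346 FPKM, and 2 of the 5 inside the control range. Their log2 change of -0.89 (SE 0.27, limma adjusted p = 0.0419) kept its call in 6 of 20 alternatives. It was lost without Bcl6 KO replicate 1, 2 or 4, sgGFP replicate 1, 3 or 4, or either sgLacZ liver, with changes of -0.95 to -0.66.

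Smyd2 KO livers ran from 228 to 466 FPKM of Plin4 (median 328, log2 -0.48, 95% interval -1.01 to 0.04), and Srebf1 KO livers held 219.8, 354, 531, 498 and 359 FPKM (log2 -0.25, interval -0.80 to 0.30). Both groups overlapped the controls. The change in Srebf1 KO was -0.06 without replicate 1, the lowest of its group and the library with Srebf1 RNA inside the control range.

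Plin5, the perilipin that ties droplets to mitochondria in oxidative tissue, lies 1797 bases from Plin4 on chromosome 17 (GRCm38 56111601 to 56117596, beside Plin4 at 56100591 to 56109803, both on the minus strand). Unlike Plin4 it passed the test in none of the 5 knockouts. Control livers ran from 315 to 451 FPKM (median 356), Tbx3 KO livers from 248 to 481 FPKM (median 379) and Smyd2 KO livers from 222 to 409 FPKM (median 331). Bcl6 KO livers held 279, 308, 302, 237 and 441 FPKM and Irs1 KO livers 375, 247, 281, 322 and 290.1 FPKM. The log2 change in Tbx3 KO was 0.03, with a 95% interval of -0.29 to 0.35, where Plin4 changed by -1.49. The 2 neighbours accordingly changed in ratio: the level of Plin4 was 0.874 to 1.73 times that of Plin5 in the controls, 0.299 to 0.563 times in Tbx3 KO and 0.447 to 0.664 times in Irs1 KO. Srebf1 KO livers held 200.2, 275, 317, 323 and 291 FPKM of Plin5, and the log2 change of -0.42 (interval -0.76 to -0.07) missed the threshold (limma adjusted p = 0.293, 0.226 to 0.539 over alternatives).

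Plin3 (also called TIP47; chromosome 17, GRCm38 56277476 to 56292873), a perilipin that moves from the cytosol to young droplets, also passed in no knockout. It was at 46.5 ± 10.3 FPKM in the controls (n = 6) and at 47.4 ± 9.15 in Bcl6 KO (n = 5), a log2 change of 0.04 (95% interval -0.32 to 0.40). Irs1 KO livers held 31.9 ± 5.25 FPKM (n = 5) and Srebf1 KO livers 32.1 ± 5.73 (n = 5). Both log2 changes were -0.51, with limma adjusted p of 0.0598 and 0.208. The Irs1 KO change passed in 3 of 20 alternatives, without Irs1 KO replicate 5, without sgGFP replicate 4 and with a filter at an FPKM of 5, so this gene stood at the edge of the test.

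Hsd17b13, an enzyme that liver droplets carry and that is known for human variants that protect against fatty liver disease, was the 1 member that rose. The controls were tightly grouped, from 855 to 1016 FPKM with a median of 910.2. Tbx3 KO livers held 1467, 1658, 1243, 1852, 1003, 2125 and 2044 FPKM. Of these 7 livers, 6 lay above every control and the remaining 1 lay just below the highest control. The mean was 1.77 times the control mean (log2 0.78, SE 0.15, limma adjusted p = 0.00331), and 7 of 7 livers were above it. In Tbx3 KO replicates 6 and 7 Hsd17b13 exceeded Plin2, which it did in no liver of the other groups.

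Irs1 KO livers lay on the other side of the controls, without passing the test. They held 605, 566, 567, 778 and 835 FPKM, all below the lowest control, with a log2 change of -0.48 (95% interval -0.81 to -0.14, limma adjusted p = 0.0596, 0.0165 to 0.295 over 20 alternatives, of which 4 passed). Bcl6 KO livers were spread over 591, 707, 1127, 511 and 798 FPKM (log2 -0.36, interval -0.69 to -0.02, limma adjusted p = 0.243), and passed only without Bcl6 KO replicate 3, the highest, at -0.52. Smyd2 KO livers ran from 881 to 1208 FPKM (median 953) and Srebf1 KO livers held 936, 970.5, 804, 915 and 1102 FPKM, with log2 changes of 0.10 and 0.03 and intervals of -0.23 to 0.42 and -0.31 to 0.37.

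Hsd17b11, the paralog that lies 12351 bases from Hsd17b13 on chromosome 5 (GRCm38 103989762 to 104021919, beside 103955440 to 103977410), moved with a different knockout. Bcl6 KO livers held 146, 174, 207, 149.8 and 248 FPKM against 216 to 388 FPKM in the controls (median 343). Only 1 of the 5 lay inside the control range. The mean was 0.574 of the control mean (log2 -0.80, SE 0.17, limma adjusted p = 0.002). In the other 4 knockouts its log2 changes lay between -0.05 and 0.17 and none passed, and in Irs1 KO the change was 0.20 with median scaling, the opposite sign, with no call. Tbx3 KO livers, where Hsd17b13 rose, ran from 274 to 467 FPKM of Hsd17b11 (median 349, log2 0.17, 95% interval -0.15 to 0.48).

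Fitm2, the endoplasmic reticulum protein needed for droplets to bud, fell in Irs1 KO and Bcl6 KO. Controls ran from 41.5 to 93.0 FPKM with a median of 78.5. Irs1 KO livers were tightly grouped at 29.2, 37.2, 38.3, 34.1 and 35.5 FPKM, all below the lowest control, at 0.463 of its mean (log2 -1.05, SE 0.22, limma adjusted p = 0.00243). Bcl6 KO livers held 19.6, 37.3, 61.7, 43.3 and 60.3 FPKM, and 3 of the 5 lay inside the control range. Their log2 change of -0.81 (SE 0.22, limma adjusted p = 0.0217) kept its call in 13 of 20 alternatives and was lost without Bcl6 KO replicate 1 or 2 or sgLacZ replicate 1.

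Tbx3 KO livers ran from 39.9 to 68.9 FPKM of Fitm2 (median 48.3) and had a log2 change of -0.58 (SE 0.20) that missed the threshold (limma adjusted p = 0.117). It passed without sgGFP replicate 3, the lowest control, at -0.74 (limma adjusted p = 0.0392, 0.0392 to 0.278 over 22 alternatives). Smyd2 KO livers ran from 42.3 to 94.8 FPKM (median 71.7) and Srebf1 KO livers held 75.0, 70.5, 82.0, 73.5 and 75.8 FPKM, with log2 changes of -0.10 and 0.05. An antisense transcript, 2310001K24Rik, shares 227 bases, or 5.7%, of the Fitm2 exons (chromosome 2, GRCm38 163466379 to 163472629).

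**Figure D4:**
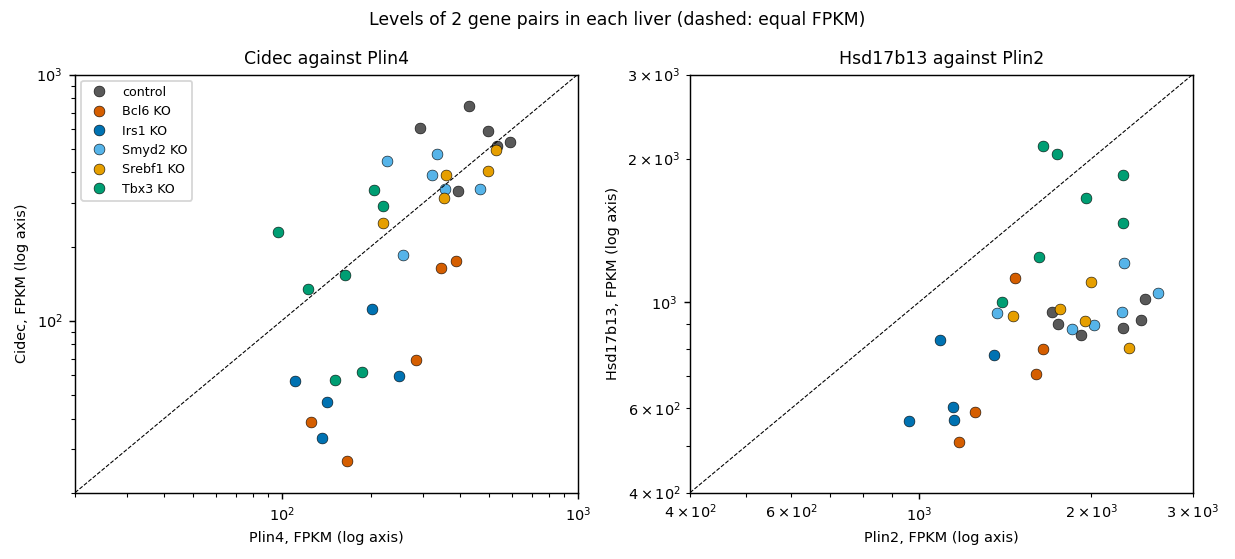
FPKM of Cidec against Plin4 (left) and of Hsd17b13 against Plin2 (right) in each liver, coloured by group, on log axes, with a dashed line at equal levels. Bcl6 KO and Irs1 KO livers lie below the line on the left, at 0.163 to 0.554 times the Plin4 level, and 2 Tbx3 KO livers lie above the line on the right.

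The knockouts were next compared with each other, a comparison that does not rest on the controls. With limma's moderated F test 8 of the 10 genes differed among the 5 knockouts, where 14.5% of all genes did. The 2 that did not pass were Plin3 (adjusted p = 0.125) and Plin5 (adjusted p = 0.277). Hsd17b13 had the smallest limma adjusted p, 2.77e-06, followed by Cidec at 2.16e-05. The count was 8 without the library labelled Srebf1 KO replicate 1, and 7 or 8 over all alternatives.

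Bcl6 KO and Irs1 KO, the knockouts with the lowest Cidec, differed in 1 gene, Hsd17b11, where 11.3% of all genes differed. It was 0.75 lower in Bcl6 KO on the log2 scale (SE 0.18, limma adjusted p = 0.00376) with no overlap. The count became 2 without Bcl6 KO replicate 4 or 5 and 3 without Irs1 KO replicate 5. Cidec ran from 27.0 to 175 FPKM in the former and from 33.4 to 112 FPKM in the latter (log2 difference 0.36, 95% interval -0.55 to 1.27).

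Tbx3 KO was told apart from both by Hsd17b13. Against Bcl6 KO 3 genes passed (9.31% of all genes): Hsd17b13 was 1.13 lower in Bcl6 KO on the log2 scale, Hsd17b11 0.97 lower and Cideb 0.40 lower. Against Irs1 KO 2 genes passed (2.81% of all genes), Hsd17b13, lower in Irs1 KO with a log2 difference of -1.25, and Plin2, with -0.68. Against Smyd2 KO 2 genes passed (0.902%), with Plin4 higher by 1.01 and Hsd17b13 lower, at -0.68, in Smyd2 KO. The same 2 passed against Srebf1 KO (0.943%), with differences of 1.24 and -0.75. The Smyd2 KO count of 2 became 0 without Smyd2 KO replicate 4 and 1 without Smyd2 KO replicate 1, 2, 3 or 5 or Tbx3 KO replicate 1, 2, 3, 4 or 5. That with Srebf1 KO became 1 without Srebf1 KO replicate 3 and stayed 2 without the library labelled Srebf1 KO replicate 1.

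Bcl6 KO and Irs1 KO also stood below the knockouts in which no member passed against the control. Bcl6 KO was lower than Smyd2 KO in 5 genes (5.83% of all genes), namely Cidea, Cidec, Hsd17b11, Plin2 and Cideb, and lower than Srebf1 KO in 5 (8.76%), with Fitm2 in place of Plin2. The former count became 3 without Bcl6 KO replicate 4 or Smyd2 KO replicate 2. Irs1 KO was lower than Smyd2 KO in 5 genes (4.26%), namely Cidec, Plin2, Fitm2, Plin4 and Hsd17b13, and lower than Srebf1 KO in the first 4 of these (1.6%). The former count became 3 without Irs1 KO replicate 2 or 3 or Smyd2 KO replicate 2, 4, 5 or 6. Smyd2 KO and Srebf1 KO differed in 0 members with limma, with 0 at an unadjusted p under 0.05, where 0.0777% of all genes differed. Counts against Srebf1 KO were the same without the library labelled Srebf1 KO replicate 1.

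Other genes of droplet biology were counted from lists of droplet surface proteins, lipolysis, triglyceride synthesis and regulators. Of 21 other droplet surface and assembly proteins tested, 1 was lower in Bcl6 KO and 2 in Irs1 KO, and 1 was higher in Srebf1 KO. The shares of all genes lower were 3.19% and 7.61% in the first 2 knockouts, so these counts are close to the background, and the median log2 change of the list was -0.03 in Bcl6 KO and 0.01 in Irs1 KO. Fitm1, the paralog of Fitm2 that is best known from muscle, was 35.6 ± 9.37 FPKM in the controls, 15.1 ± 7.86 in Bcl6 KO (log2 -1.27, limma adjusted p = 0.0206) and 12.5 ± 5.51 in Irs1 KO (log2 -1.50, limma adjusted p = 0.00482). Lpcat1, an acyltransferase of phosphatidylcholine, fell in Irs1 KO (log2 -1.26), and Nsdhl, an enzyme of cholesterol synthesis, rose in Srebf1 KO (log2 1.39). Over all alternatives and leave-outs the number lower ran from 0 to 2 in Bcl6 KO and from 1 to 2 in Irs1 KO, and the number higher from 0 to 5 in Irs1 KO and 0 to 1 in Srebf1 KO. The Fitm1 call in Bcl6 KO was lost without Bcl6 KO replicate 2 or 4, and the Nsdhl call without Srebf1 KO replicate 2, 3, 4 or 5 or sgGFP replicate 1, 3 or 4.

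Of 13 lipolysis genes, 1 was higher and 1 lower in Bcl6 KO, and 1 was higher and 4 lower in Irs1 KO. Over all genes 2.95% were higher and 3.19% lower in Bcl6 KO, and 3.24% and 7.61% in Irs1 KO, so that single genes of 13 are close to the background. The median log2 change of the list was -0.32 in Bcl6 KO and -0.54 in Irs1 KO, beside -0.07 and -0.12 over all genes. Pnpla3, the lipase whose human variant raises liver fat, went from 59.6 ± 34.6 FPKM in the controls to 314 ± 173 in Bcl6 KO (log2 2.39, limma adjusted p = 0.0109), and the carboxylesterase Ces3a went from 4914 ± 1247 to 1590 ± 842 FPKM (log2 -1.72, limma adjusted p = 3.46e-07). In Irs1 KO the lysosomal lipase Lipa (log2 -0.81), the droplet lipase Pnpla2, also called ATGL (-0.63), and Abhd5, its activator (-0.62), fell, and Ces3b rose (1.27). The number higher in Irs1 KO was 0 without sgGFP replicate 1 or 3, sgLacZ replicate 2, or Irs1 KO replicate 3 or 4. The number lower in Irs1 KO ran from 1 to 5 over all alternatives and leave-outs, was 1 with median scaling, and was 2 without Irs1 KO replicate 1 or sgGFP replicate 2. In Bcl6 KO it ran from 1 to 3, with 3 without Bcl6 KO replicate 3 or sgGFP replicate 4, and none was higher without Bcl6 KO replicate 4. Of 12 triglyceride synthesis genes, with list medians of -0.37 in Bcl6 KO, -0.16 in Irs1 KO and -0.09 in Tbx3 KO on the log2 scale, Mogat1, a monoacylglycerol acyltransferase, was the 1 that fell in Bcl6 KO (log2 -1.88) and in Tbx3 KO (log2 -2.06), and with Gpam it was 1 of 2 that fell in Irs1 KO (log2 -2.51). Of all genes 1.37% were lower in Tbx3 KO. The control level of Mogat1 was 58.0 ± 25.8 FPKM (n = 6). The number lower ran from 0 to 2 in Bcl6 KO and from 1 to 3 in Irs1 KO, and was 1 throughout in Tbx3 KO. It was 0 in Bcl6 KO without Bcl6 KO replicate 2 or 4 or sgGFP replicate 2, and 1 in Irs1 KO without Irs1 KO replicate 3, sgGFP replicate 2 or sgLacZ replicate 2.

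Among 17 regulators, Pparg, the fatty-acid receptor that drives Cidec and Plin4 in fat cells, was the 1 that fell in Irs1 KO and in Tbx3 KO. It was 314 ± 101 FPKM in the controls (n = 6), 109 ± 44.2 in Irs1 KO (n = 5, log2 -1.55, limma adjusted p = 0.00018) and 158 ± 64.9 in Tbx3 KO (n = 7, log2 -1.02, limma adjusted p = 0.0124). In Bcl6 KO it was 208 ± 51.0 FPKM (n = 5, log2 -0.56, limma adjusted p = 0.218), which did not pass, and in Smyd2 KO and Srebf1 KO its log2 changes were 0.00 and 0.05. Regulators that rose were Hnf4a in Bcl6 KO (log2 0.42), Hnf4a and Creb3l3 in Tbx3 KO (0.36 and 0.47), and 6 genes in Irs1 KO, led by Hnf4a (0.50), Rxra (0.49) and Mlxipl (0.62). Of all genes, 2.95% were higher in Bcl6 KO, 1.17% in Tbx3 KO and 3.24% in Irs1 KO. The shares of all genes lower were 7.61% in Irs1 KO and 1.37% in Tbx3 KO. Single genes of 17 are thus close to the background in Bcl6 KO and Irs1 KO. The list median was 0.23 in Irs1 KO, 0.12 in Tbx3 KO and -0.02 in Bcl6 KO on the log2 scale. The number higher in Irs1 KO ran from 3 to 7 over all alternatives and leave-outs, and was 3 without Irs1 KO replicate 1 or 3 or sgGFP replicate 2. That in Tbx3 KO ran from 2 to 5, with 5 without Tbx3 KO replicate 7. In Srebf1 KO no regulator passed, and 1 was higher and 1 lower without the library labelled Srebf1 KO replicate 1, on a list that holds Srebf1 itself. The part of Pparg in the levels of the 10 genes was not tested.

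Markers of other cell types moved with some groups. Of all genes tested, 3.19% were lower in Bcl6 KO, 7.61% in Irs1 KO and 1.37% in Tbx3 KO. The shares of all genes higher were 2.95%, 3.24% and 1.17% in the same order, and 0.197% in Srebf1 KO. Single markers of a list are close to this background in Bcl6 KO and Irs1 KO. Adipocytes carry Cidec, Cidea and Plin4. Of 9 adipocyte markers, Adipoq, Lep and Adig were at 0 in every control library, Plin1, Lep and Retn in every Bcl6 KO library, Plin1, Adipoq, Lep and Retn in every Irs1 KO library, Adipoq and Lep in every Smyd2 KO library and Plin1 in every Tbx3 KO library. No adipocyte marker was at 0 throughout Srebf1 KO. Of the 6 adipocyte markers tested, Adrb3 was higher in Irs1 KO (log2 1.19) and in Tbx3 KO (log2 1.26). Car3 was higher in Srebf1 KO (log2 1.33), and none passed as lower in any knockout. The median log2 change of these 6 was -0.82 in Bcl6 KO, -0.19 in Irs1 KO and -0.16 in Tbx3 KO. It was 0.42 in Smyd2 KO and 0.49 in Srebf1 KO. In Irs1 KO 7 of 10 markers of lipid-associated macrophages, 6 of 12 of stellate cells, 3 of 12 of Kupffer cells and macrophages, and 2 of 10 of endothelial cells were lower. The lipid-associated macrophage list summed to 312 to 583 FPKM in Irs1 KO and 816 to 3543 in the controls, with no marker at 0 throughout. The Kupffer cell and macrophage list overlapped the controls, at 811 to 1409 FPKM in Irs1 KO against 1092 to 2130. In Tbx3 KO 3 of 12 stellate cell markers were lower, and the lipid-associated macrophage list summed to 364 to 2542 FPKM. Srebf1 KO had 1 of 10 lipid-associated macrophage markers lower, Fabp5 (log2 -2.24), against 0.181% of all genes. The median log2 change of that list was -1.97 in Irs1 KO, -1.37 in Srebf1 KO, -1.11 in Tbx3 KO, -0.59 in Bcl6 KO and -0.46 in Smyd2 KO. In Bcl6 KO 10 of 14 hepatocyte markers were higher, summing to 168958 to 236377 FPKM against 85297 to 110509 in the controls, and in Irs1 KO 9 were (122876 to 147167). Tbx3 KO had 3 higher, Serpina1a, Cps1 and Hnf4a, with a sum of 100236 to 118276 FPKM that overlapped the controls. In Bcl6 KO 4 of 10 endothelial markers were also higher. The adipocyte list, most of it Car3, summed to 1411 to 4204 FPKM in the controls, 1108 to 2960 in Bcl6 KO, 2370 to 4777 in Irs1 KO and 1178 to 3240 in Tbx3 KO. In Srebf1 KO it summed to 5743 to 7150 FPKM, above every control, with 6291 in the library labelled Srebf1 KO replicate 1. The cholangiocyte list summed to 871 to 3156 FPKM in the controls, 321 to 737 in Irs1 KO, with no overlap, and 544 to 1221 in Bcl6 KO, with 1 of 10 markers lower in each (Spp1 in Irs1 KO and Sox9 in Bcl6 KO). Spp1 is also on the lipid-associated macrophage list, and was at 1377 ± 879 FPKM in the controls and 300 ± 116 in Irs1 KO. It made up most of both sums in these groups, so the 2 sums largely show the same gene. Blood cell markers summed to 373 to 505 FPKM in the controls, 521 to 736 in Irs1 KO, 522 to 686 in Srebf1 KO and 267 to 407 in Bcl6 KO, and 1 of 10, Alas2, was higher in the first 2 of these knockouts and lower in the last. Alas2 made up most of these sums, with means of 332, 530, 517 and 231 FPKM in the same order. The median log2 change of the blood cell list was -0.38 in Irs1 KO, 0.12 in Srebf1 KO and 0.20 in Bcl6 KO. The sums thus do not describe the list as a whole. The part of these shifts in the levels of the 10 genes was not tested.

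The genes most like each member in log2 level over the 34 livers, among genes tested other than the members and unnamed loci, differed from member to member. Like Cidec were Atp9a (Pearson r 0.93, Spearman rho 0.89), Ermp1 (0.91, 0.86) and Osbpl3 (0.90, 0.87), with r of 0.76 to 0.86 for deviations from the group means. Ermp1 was also among the 3 most like Plin4 (r 0.79), after Tmprss11f (0.82) and before Themis (0.78). Among those most like Fitm2 were Hsd17b4 (0.88) and Slc25a10 (0.87), and for Hsd17b11 they were Cpox (0.86), Cyp2d9 (0.85) and Acaa2 (0.84). Chpt1 (0.86), Pcsk6 (0.82) and Blvrb (0.81) were nearest to Cidea, Anxa2 (0.83), Enc1 (0.83) and Cntnap1 (0.82) to Plin2, and Tbc1d22a (0.79), Mov10 (0.79) and Rnf144a (0.78) to Plin3. Those of Hsd17b13, Ifi27 (0.79), Sfxn1 (0.78) and Ntrk2 (0.78), kept r of 0.27 to 0.37 for deviations from the group means, so their likeness lay mostly between groups. Plin5 was most like Sema6b (r 0.72), whose gene lies 5488 bases away on the same strand, then Cdkn1a (0.66) and Incenp (0.64). After Nop9, Pfkm (0.82) and S100a1 (0.78) were nearest to Cideb. These are descriptions over livers that share 6 groups, with no test.

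Within groups the members did not move as 1 block. Over 34 livers, deviations from the group means of log2(FPKM + 1) correlated most between Hsd17b11 and Fitm2 (Pearson r 0.73, Spearman rho 0.66, and r 0.62 without the 2 livers farthest from the median), then between Cidec and Hsd17b13 (0.65, 0.47, 0.56) and between the neighbours Plin4 and Plin5 (0.56, 0.54, 0.46). Plin3 ran opposite to Fitm2 (-0.56, -0.49, -0.47) and to Hsd17b11 (-0.52, -0.43, -0.35). Cidec and Plin2 had r 0.50 and Plin2 and Fitm2 had r -0.02. The values share library and depth and are given without a test.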

How the data were processed

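The deposited values are FPKM per gene symbol, 1 column per liver, each matched to its sample by title or description. TRIzol and RNeasy Mini were used for extraction and a SMARTer stranded kit for the libraries, per the labels' protocols. The authors counted with featureCounts 1.6.4, per the submitters' processing notes, which also name the builds mm10 and GRCh38. On the aligner, annotation and strand setting nothing is given in the sources used here.

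The filter (FPKM 1 in 5 libraries) left 19295 of 35976 symbols. Their log2 values, after adding a pseudocount of 1 to the FPKM, were fitted with limma 3.58.1 (R 4.3.3), with all 34 livers, 6 group levels and an intensity trend. The threshold was an adjusted p of 0.05. The script was tested on simulated data. FPKM alone give no read counts, and depth (2110000 to 3130000 reads) was inferred from the smallest steps of genes with 1 annotated transcript. Genes with few reads have wide errors. Positions are from GENCODE M21 on GRCm38.

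Alternatives were a pseudocount of 0.1, no filter, a filter at FPKM 5, median scaling, quantile normalization, a replicate block, no trend, 2 groups alone, sgGFP alone as control, and each liver left out. Pathway genes were named by smallest adjusted p, up to 4 per list and comparison, and likeness by the 3 highest r, of which 1 gene is not reported here. Members and lists were chosen with earlier results of these data known. From the numbered labels the livers were treated as separate animals. Where that is not so, the p-values describe spread among samples alone, which may be technical.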

Additional observations from a re-analysis of the deposited data

Results flagged for a closer look

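Of 60 combinations of gene and group with 5 to 7 livers, 3 held a liver far from the rest of its group, about the number that chance gives at 5% of groups. Cidea in Bcl6 KO replicate 5 was at 23.4 FPKM, where the other 4 livers were at 0 to 0.988. Plin3 in Irs1 KO replicate 5 was at 41.0 FPKM, where the others were at 28.3 to 31.2. Fitm2 in Tbx3 KO replicate 6 was at 68.9 FPKM, where the others were at 39.9 to 52.1.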

How the results depend on the processing

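Counts of the 10 genes past the threshold moved by more than 1.5 times in 6 comparisons. Irs1 KO against Smyd2 KO (5) gave 3 with no filter, 2 with median scaling and 3 with the replicate block. Smyd2 KO against Tbx3 KO (2) gave 1 with no filter, median scaling, no trend or 2 groups alone. Bcl6 KO against Irs1 KO (1) gave 2 with the filter at FPKM 5, median scaling or 2 groups alone. Bcl6 KO against the control (7) gave 3 with median scaling and 4 with quantile normalization or 2 groups alone, and Bcl6 KO against Smyd2 KO (5) gave 3 with median scaling or quantile normalization. Srebf1 KO against Tbx3 KO (2) gave 1 with the replicate block. With each liver left out in turn the counts ranged from 3 to 7, 1 to 3, 3 to 7, 3 to 5, 0 to 3 and 1 to 2 for Bcl6 KO against the control, Irs1 KO and Smyd2 KO, Irs1 KO against Smyd2 KO, Smyd2 KO against Tbx3 KO and Srebf1 KO against Tbx3 KO. In Irs1 KO against the control, Cideb (0.18) and Hsd17b11 (0.20) changed sign with median scaling, with no call. Except for the removal of livers, the cause was not tested. Same-numbered livers did not deviate together (mean r -0.005 over 83 pairs, 2 over 0.1), so the numbers do not pair the samples, and the replicate block is a fit on a shared number only. Tbx3 KO is the only group with a replicate 7, so with the block that liver had a term of its own. It then did not inform the comparisons of Tbx3 KO. The share of higher calls in Srebf1 KO went from 52.1% to 72.2% with median scaling, which moved the median of all genes by 0.12. Over all genes, calls with the replicate block rose from 490 to 1931 in Tbx3 KO against the control, where the share of higher calls went from 45.9% to 30.9% and the same 3 members passed, from 174 to 639 in Smyd2 KO against Tbx3 KO and from 73 to 133 in Srebf1 KO against the control, and the last count was 44 with no trend.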
